A study of Mus musculus with 30 samples.

Results

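HOX genes encode homeodomain transcription factors, and the mouse genome carries them in 4 clusters, named A to D. The genes described here are those in the deposited gene table whose mouse symbol is Hoxa, Hoxb, Hoxc or Hoxd followed by a number: 39 genes of 78334 gene identifiers, in cluster A on chromosome 6, cluster B on chromosome 11, cluster C on chromosome 15 and cluster D on chromosome 2. Values and counts are given for 38 of them. The 30 libraries were made from RNA of cells labelled as mouse aortic smooth muscle cells, in a study of the long noncoding RNA CASC15 and the growth of these cells. They fall into 9 groups sequenced in 2 runs, which were tested separately. In run 2, 2 control antisense libraries were set against 2 libraries labelled total CASC15 knockdown, and 3 control plasmid libraries against 3 libraries with a plasmid that overexpresses total CASC15. In run 3, 5 groups of 4 libraries each held control antisense cells left untreated, given angiotensin II or given PDGF-BB, and cells with knockdown of the long form of CASC15, untreated or given angiotensin II. Knockdown used GapmeRs, antisense oligonucleotides that direct cleavage of the bound RNA. All cells had been starved of serum for 48 h and transfected for at least 24 h. Angiotensin II was given at 10 ng/ml and PDGF-BB at 10 to 30 ng/ml, each for 24 h, and no group combined PDGF-BB with the knockdown. The titles number the RNA upward from CASC15 to CASC22 across samples of the same kind, and the groups here follow the code in the library names. The growth protocol speaks of mouse and rat cells, and all libraries were treated as mouse, as the organism label has it. Each replicate number within a run goes with a batch label, P16 to P19, which the labels do not expand. The labels do not say that the libraries of a group came from separate cultures or animals, so every p-value here measures only the spread between these libraries.

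Along each cluster the genes are numbered by position, and in the embryo the low-numbered genes are switched on nearer the head and earlier than the high-numbered ones. Adult mesenchymal cells keep part of this pattern, so that the set of HOX genes they express records where along the body axis they arose. HOX proteins bind DNA together with TALE cofactors, the PBX, MEIS and PKNOX proteins, while Polycomb complexes keep unused HOX genes silent and MLL complexes keep used ones active.

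Five-prime flanking sequence is shown for 3 genes that were on in these cells and for 2 that were not, chosen so that Hoxb4 stands beside its cluster D paralogue Hoxd4, and Hoxb8 beside Hoxd8. Hoxa2 is shown because its call in the overexpression comparison is described below. Each window holds the 250 bases before the RefSeq transcript start on the GRCm38.p6 assembly, 5′ to 3′ on the gene's own strand, and holds no annotated exon. Capitals mark matches on either strand to 4 motifs: CCAAT, the CCAAT box; TGATNNAT, a site of PBX and HOX proteins; TTTATG, a site of posterior HOX and CDX proteins; and AGGTCA, a nuclear receptor site.
Hoxa2, on, chr6:52164832-52165081, minus strand: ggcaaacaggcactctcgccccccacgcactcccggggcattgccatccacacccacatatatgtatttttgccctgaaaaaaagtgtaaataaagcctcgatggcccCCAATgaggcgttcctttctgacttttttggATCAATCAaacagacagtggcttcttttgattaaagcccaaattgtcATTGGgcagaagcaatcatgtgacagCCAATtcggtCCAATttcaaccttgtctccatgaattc
Hoxb4, on, chr11:96318017-96318266, plus strand: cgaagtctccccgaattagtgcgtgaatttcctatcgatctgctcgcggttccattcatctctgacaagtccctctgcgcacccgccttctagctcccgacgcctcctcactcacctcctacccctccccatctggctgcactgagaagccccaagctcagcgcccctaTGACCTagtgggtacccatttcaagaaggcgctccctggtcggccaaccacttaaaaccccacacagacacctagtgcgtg
Hoxd4, at the detection floor, chr2:74721728-74721977, plus strand: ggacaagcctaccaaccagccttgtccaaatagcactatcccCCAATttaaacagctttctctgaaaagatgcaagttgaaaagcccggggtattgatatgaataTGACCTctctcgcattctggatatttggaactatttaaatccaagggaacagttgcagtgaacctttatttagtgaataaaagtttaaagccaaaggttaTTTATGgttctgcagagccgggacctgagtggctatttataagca
Hoxb8, on, chr11:96281655-96281904, plus strand: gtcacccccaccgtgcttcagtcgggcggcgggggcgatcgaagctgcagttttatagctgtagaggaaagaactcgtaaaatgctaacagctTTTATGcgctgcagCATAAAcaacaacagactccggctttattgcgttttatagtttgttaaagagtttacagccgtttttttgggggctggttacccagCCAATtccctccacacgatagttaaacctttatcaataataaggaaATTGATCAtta
Hoxd8, at the detection floor, chr2:74704365-74704614, plus strand: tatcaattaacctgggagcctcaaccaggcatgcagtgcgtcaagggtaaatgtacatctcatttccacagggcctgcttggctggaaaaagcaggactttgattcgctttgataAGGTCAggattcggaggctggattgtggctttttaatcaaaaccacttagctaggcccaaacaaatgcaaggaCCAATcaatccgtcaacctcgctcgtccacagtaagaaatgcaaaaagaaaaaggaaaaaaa
Hoxa2 held 4 CCAAT matches and 1 TGATNNAT match, and Hoxb8 held 1 CCAAT, 1 TGATNNAT and 2 TTTATG matches. Hoxb4 held a single AGGTCA match, a motif also found in the windows of Hoxd4 and Hoxd8. Windows were given for 22 of the 38 genes, 24 windows in all, of which 8 belong to genes that were on and 12 to genes at the floor. A CCAAT match occurred in 14 of the 24 HOX windows against 33.8% of 32851 windows over the genome, in 4 of the 8 on and in 8 of the 12 at the floor. A TGATNNAT match occurred in 4 of 24 against 7.68%, TTTATG in 5 of 24 against 10.8% and AGGTCA in 6 of 24 against 14%. The median GC content was 60% for the on windows and 57.4% for those at the floor, against 52.4% for all windows. These matches are letters in a window and do not show that a protein binds there.

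Library totals ran from 18007199 to 21881959 estimated counts in run 2 and from 15771490 to 30362047 in run 3, so that 3 counts, taken as the detection floor, equal 0.134 to 0.179 CPM, counts scaled to one common TMM-adjusted library total, in run 2 and 0.102 to 0.19 CPM in run 3. Read as the mouse gene 2610307P16Rik, CASC15 went from a mean of 6.42 to 716 CPM with overexpression, and was lower with long knockdown, from 5.52 to 2.87 CPM in untreated cells. In the libraries labelled total CASC15 knockdown it was not lower, at 9.01 against 7.02 CPM (adjusted p = 0.739), so a direction given for those libraries rests on their label. The labelled cell type was checked against its markers. In the untreated run 3 control, Acta2, smooth muscle actin, stood at 212 ± 12.9 CPM (SD, n = 4), while Myh11, smooth muscle myosin, averaged 0.0639 CPM and Cnn1 0.0249 CPM, both under the floor, and Tagln 1.06 CPM. The summed level of 9 fibroblast markers was 3527 to 6364 CPM over all 30 libraries, with Col1a1 at 2149 ± 266 CPM in the same control, and that of 11 smooth muscle markers was 178 to 546 CPM. In that control, 6 of the 9 fibroblast and 6 of the 11 smooth muscle markers reached a mean of 1 CPM. Dpt and Cd34 of the first list and Actg2 and Itga8 of the second were also at the floor.

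The HOX genes that were on were mostly anterior and central ones of clusters A and B, with a single gene of cluster C and none of cluster D. Of the 38 genes, 15 reached a mean of 1 CPM in at least 1 of the 9 groups, the level called on here: Hoxa2 to Hoxa7, Hoxb2 to Hoxb9 and Hoxc4. All but Hoxa6 did so in all 9 groups. At 0.5 CPM 17 genes were on and at 2 CPM 15 were. A further 7 genes passed 3 counts in some library while staying under 1 CPM in every group mean: Hoxa9, Hoxa10, Hoxa13, Hoxc5, Hoxc6, Hoxc10 and Hoxc13. Hoxa10, which acts in the posterior trunk, came nearest, with a highest group mean of 0.880 CPM, followed by Hoxa9 at 0.601 CPM. Hoxa13, a gene of the limb ends and the urogenital tract, reached 0.452 CPM. The remaining 16 genes, Hoxa11, Hoxb1, Hoxb13, Hoxc8, Hoxc9, Hoxc11, Hoxc12 and all 9 genes of cluster D, never passed 3 counts in any library, and 9 of them had no count at all. In bulk RNA a lower level in every cell and a smaller share of expressing cells cannot be told apart.

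**Figure D1:**
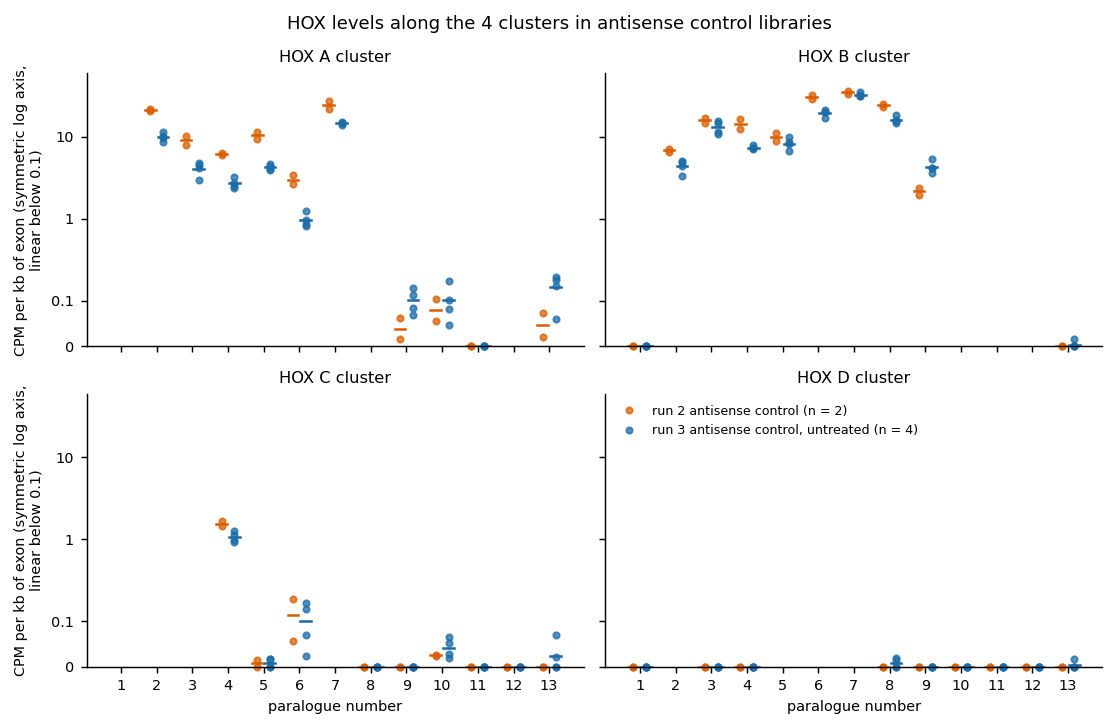
Levels of 38 HOX genes by cluster and paralogue number in antisense control libraries, in CPM per kilobase of exon on an axis that is logarithmic above 0.1 and linear below. Points are libraries of run 2 (orange, n = 2) and run 3 untreated (blue, n = 4), and lines are group means. Hoxa2 to Hoxa7 and Hoxb2 to Hoxb9 have the highest means of clusters A and B, Hoxb1 lies at 0, Hoxc4 is the highest of cluster C, and cluster D lies at or near 0.

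Cluster B supplied most HOX counts in every library, 61.5% to 67.7% of them in run 2 and 70.1% to 76.0% in run 3. Cluster A supplied 31.5% to 37.8% and 23.2% to 28.9%, cluster C at most 1.15% and cluster D at most 0.027%. The order of the genes was read per kilobase of exon, since longer transcripts collect more counts. In the untreated run 3 control, Hoxb7, a trunk gene, was highest at 32.8 ± 1.61 CPM per kb (SD, n = 4), above every library of Hoxb6 at 19.7 ± 1.78. Hoxb8 at 16.2, Hoxa7 at 14.9, Hoxb3 at 13.2, Hoxa2 at 10.0, Hoxb5 at 8.32 and Hoxb4 at 7.41 CPM per kb followed, each overlapping its neighbour in this order. A gap separated Hoxb4 from Hoxb2 at 4.47, after which Hoxb9, Hoxa5, Hoxa3 and Hoxa4 lay between 4.33 and 2.71 CPM per kb with overlapping libraries. Hoxc4 at 1.06 and Hoxa6 at 0.975 CPM per kb formed the lowest pair, below all libraries of Hoxa4. The highest level of clusters A and B thus lay inside the cluster, at Hoxa7 and Hoxb7, while all genes past Hoxa7 were under 1 CPM and Hoxb13, the only gene past Hoxb9, was at the floor. Hoxc4, a neck gene and the highest of cluster C, stood at 3.19, 2.92, 2.34 and 2.47 CPM in the untreated run 3 control and at 3.7 and 4.25 CPM in the run 2 antisense control. In the run 2 antisense control Hoxb7 was again highest at 35.1 CPM per kb, with Hoxb6 at 30.8, Hoxa7 at 24.6, Hoxb8 at 24.3 and Hoxa2 at 21.2. With the longest transcript in place of all exons, 5 of the 15 levels of the untreated run 3 control moved by more than 1 SD between libraries (Hoxa3, Hoxa7, Hoxb3, Hoxb7 and Hoxc4), and Hoxa3 went from rank 12 to rank 7. In the run 2 antisense control Hoxb2 moved by more than 1 SD as well, from 6.84 to 7.61 CPM per kb. The 2 runs were not compared by a test. Over all libraries of each run, treated and perturbed ones included, the ranges overlapped for 14 of the 15 genes. Hoxa5, a gene of the neck and lung, was the exception: its 20 run 3 libraries lay at 5.64 to 11.8 CPM and its 10 run 2 libraries at 12.2 to 21.6 CPM. Between the untreated antisense controls alone, only Hoxb3, Hoxb5 and Hoxb7 overlapped. Hoxb9 was higher in run 3, at 9.24 to 13.7 against 5.09 to 6.19 CPM. The other genes that were on were lower there, such as Hoxa2 at 15.4 to 20.5 against 36.6 to 38.8 CPM.

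Within run 3 the libraries of batch P19 stood apart, so the number of HOX genes called is given with all libraries, with the batch as a block, and without P19. Against the mean of P16 to P18, and with all 5 groups in the fit, 9 of the 17 HOX genes tested differed in P19, where 46.3% of all genes did. P19 is a single batch, and its libraries from the 5 groups served as replicates in this test. The p-values given for P19 therefore do not measure the spread between batches. That this batch differed in other genes was known from earlier results of these data. Hoxa3, which patterns the neck and pharyngeal arches, differed most, with a log2 fold change of -0.81 (adjusted p = 8.88e-10). Its P19 library was the lowest of the 4 in 5 of 5 groups: in the untreated control it stood at 17.9 CPM against 25.2, 27.1 and 28.9, and in the untreated long knockdown at 16.2 against 32.1, 32.5 and 36.1. Hoxa2, Hoxb2, Hoxb3, Hoxb5 and Hoxb8 were likewise lowest in P19 in 5 of 5 groups, and Hoxb4 and Hoxb6 were lower by small amounts. When single libraries were left out, the log2 fold change ran from -0.20 to -0.12 for Hoxb4 and from -0.16 to -0.093 for Hoxb6. These fits called 7 to 9 HOX genes, against 41.1% to 45.8% of all genes. Hoxb5, a gene of the neck and lung, stood at 22.6, 23.9 and 27.5 CPM in batches P16 to P18 of the untreated control and at 18.7 CPM in P19 (log2 fold change over the 5 groups -0.65, adjusted p = 1.84e-05). Hoxb9, the most posterior gene that was on, went the other way with a log2 fold change of 0.53 (adjusted p = 7.61e-06), and its P19 library was the highest in 5 of 5 groups.

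**Figure D2:**
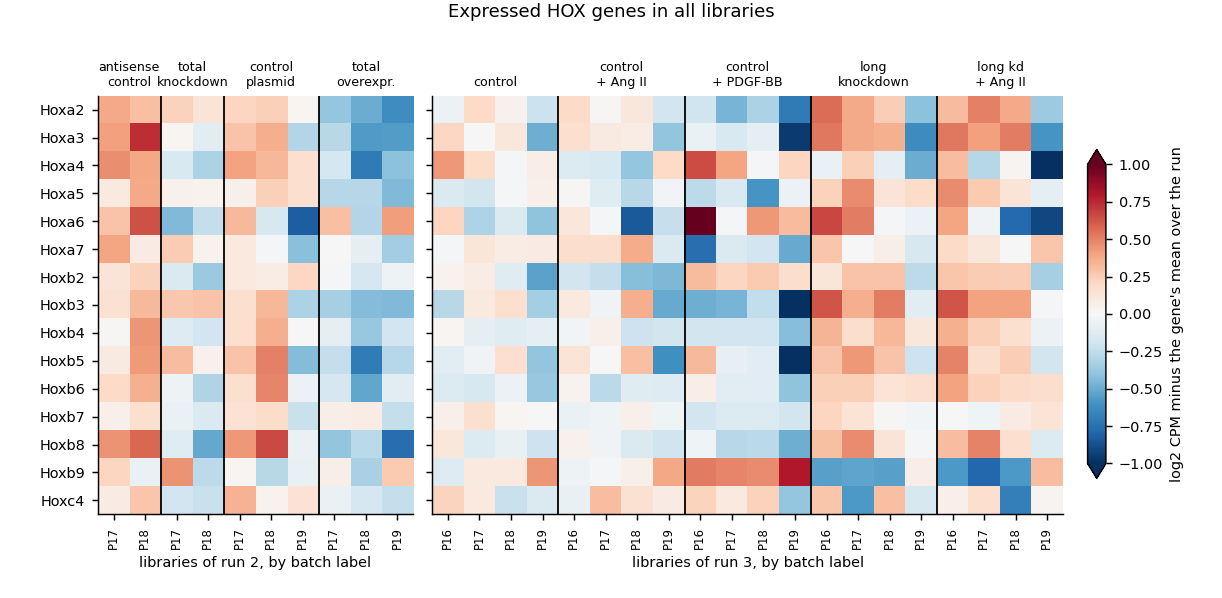
Heat map of 15 HOX genes that were on (rows) in the 30 libraries (columns, by group and batch label), coloured by log2 CPM minus the gene's mean over its run, with colours clipped at 1 either way. In run 3 the P19 column of each group is its bluest for Hoxa3 and its reddest for Hoxb9.

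With knockdown of the long form of CASC15 in untreated cells, Hoxb4 and Hoxb6 were higher, 2 of the 17 HOX genes tested, where 25% of all genes were called (edgeR quasi-likelihood test, Benjamini-Hochberg adjusted p under 0.05). Hoxb6, a trunk gene that sits beside Hoxb7, stood at 39.7, 39.1, 42.0 and 33.8 CPM in the control and at 51.7, 51.6, 48.1 and 49.2 CPM in the knockdown. All 4 knockdown libraries were above all controls, 0.38 ± 0.090 higher on the log2 scale (SE; adjusted p = 0.00406). Hoxb4, a neck gene also known for its role in blood stem cells, stood at 20.2, 18.7, 18.4 and 18.8 CPM in the control and at 25.3, 22.5, 25.2 and 21.6 CPM in the knockdown. Its groups did not overlap either, with 0.32 ± 0.093 on the log2 scale (SE; adjusted p = 0.0156). The Hoxb6 call held in 15 of 15 alternative fits. That of Hoxb4 was lost when control replicate 3 (adjusted p = 0.0515), knockdown replicate 1 (0.06) or knockdown replicate 3 (0.0594) was left out, and without the filter on low counts (0.0628).

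**Figure D3:**
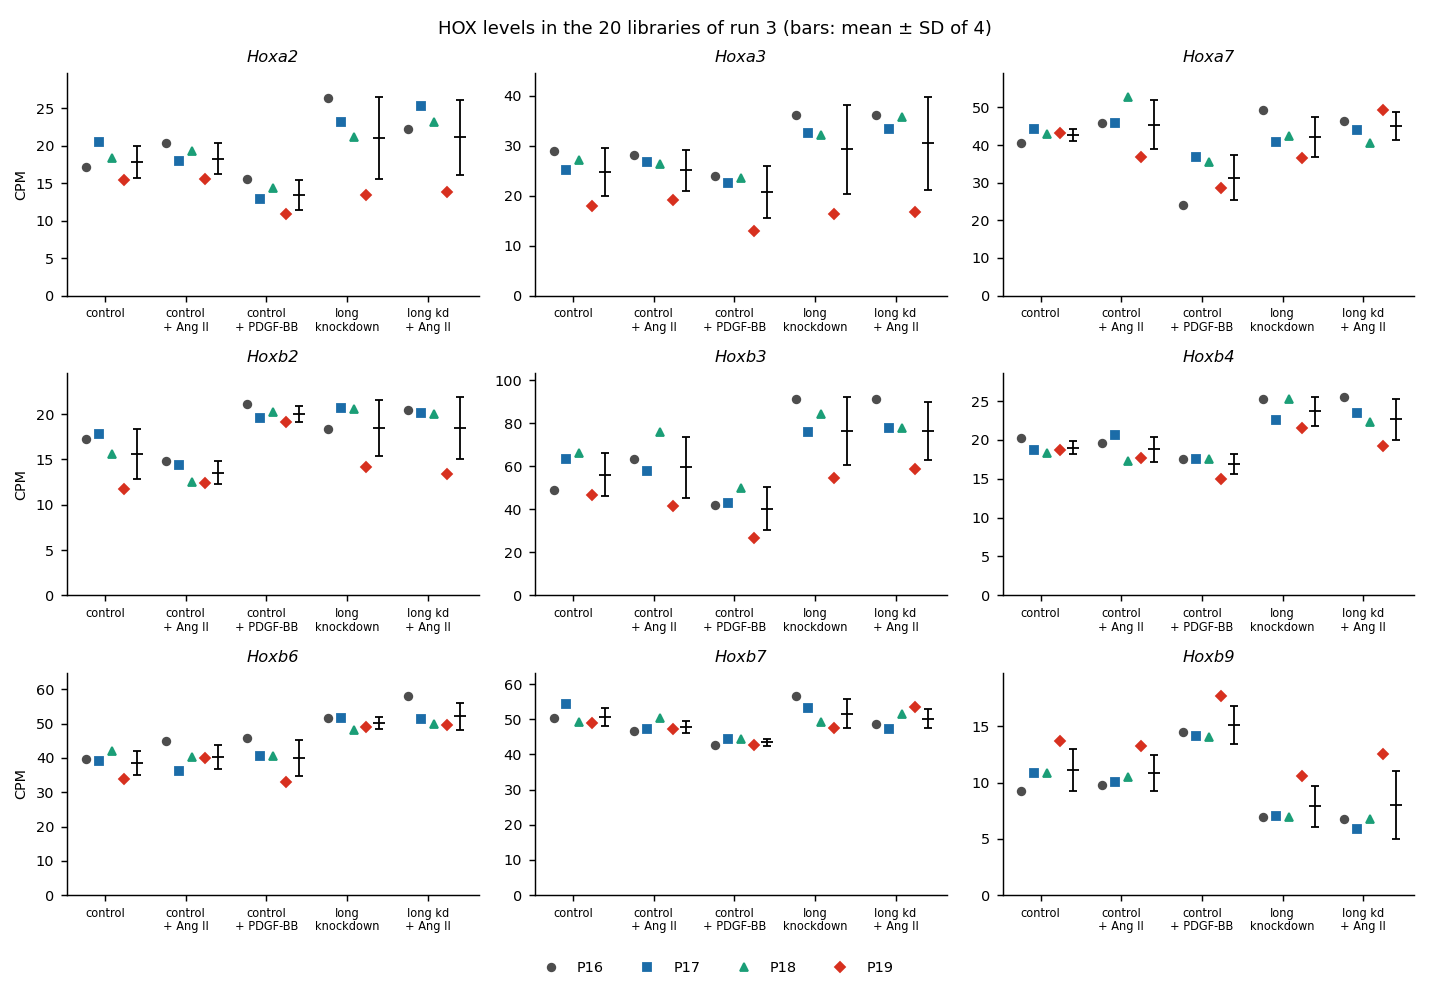
CPM of 9 HOX genes in the 20 libraries of run 3, by group on the horizontal axis, with the batch shown by the marker and bars giving the mean ± SD of 4 libraries. Hoxa7 is lower with PDGF-BB, Hoxb6 is higher in both knockdown groups, and the red P19 markers lie low for Hoxa2 and Hoxa3 and high for Hoxb9.

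With the batch as a block, 7 of the 17 HOX genes were called in the untreated knockdown, where 40.6% of all genes were, and without P19 9 were, against 40% of all genes. The block added Hoxa5 (log2 fold change 0.32, adjusted p = 0.0439), Hoxb2 (0.25, 0.0438), Hoxb3 (0.43, 0.0021) and Hoxb8 (0.30, 0.00189) as higher and Hoxb9 (-0.51, 0.000967) as lower. Without the block the Hoxb2 value fell to 0.12 when the P19 control library was left out, and of the 15 alternatives only the block called the gene. Hoxa5 stood at 7.69, 7.47, 8.38 and 8.8 CPM in the control and at 9.95, 11.8, 9.3 and 9.66 CPM in the knockdown, without overlap. Hoxb9 stood at 9.24, 10.8, 10.8 and 13.7 CPM in the control and at 6.96, 7.01, 6.96 and 10.6 CPM in the knockdown, so it was lower within each of the 4 batches although the P19 knockdown library lay among the controls. Hoxb3, which acts in the hindbrain and neck, went from 48.8, 63.1, 65.9 and 46.6 CPM to 91.0, 75.7, 84.2 and 54.4 CPM, again higher in each batch. Antisense transcripts overlap 52.9% of the exon bases of Hoxb3, and since the strand setting of the counting is not given in the sources used here, its reads and theirs cannot be told apart. The same holds for 27.3% of Hoxb2, 25.4% of Hoxa3, 20.4% of Hoxa7 and 16% of Hoxa4, and for none of Hoxb4, Hoxb6, Hoxb7, Hoxb8 and Hoxb9. A gene on the same strand, Gm28308, shares 15% of the exon bases of Hoxa2 and 8.01% of those of Hoxa3, so their counts rest on how reads were divided between the genes. Hoxb6 shares no exon base with another annotated gene, yet its estimated count was not a whole number in 20 of the 30 libraries. Without P19, Hoxb4, Hoxb6 and 6 other genes were higher, and Hoxb9 was lower (log2 fold change -0.57, adjusted p = 0.000415). Leaving out the P19 library of the knockdown alone gave 5 calls, against 31.7% of all genes. Over the 17 genes the median log2 fold change was 0.25, against 0.015 over all genes.

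Under angiotensin II the knockdown was compared in another set of 8 libraries, and 3 of the 17 HOX genes were called, where 26.7% of all genes were. Hoxb6 was again higher, from 44.9, 36.3, 40.3 and 40.1 CPM to 58.0, 51.4, 50.0 and 49.5 CPM, without overlap (0.37 on the log2 scale, SE 0.090, adjusted p = 0.00448). The 2 comparisons share no library, but both draw on batches P16 to P19 and were fitted together, so they are not independent repeats. Hoxb2, a hindbrain gene, was called as higher at 0.45 (SE 0.15, adjusted p = 0.0293), with 20.5, 20.1, 20.0 and 13.4 CPM in the knockdown against 14.9, 14.4, 12.6 and 12.4 CPM, where the P19 knockdown library lay among the controls. Hoxb4 was called as higher at 0.27 (SE 0.093, adjusted p = 0.0381), with overlapping groups. The Hoxb4 call was also lost without the filter on low counts (adjusted p = 0.11) and in a fit of the compared groups alone (0.092). Leaving out single libraries ended the Hoxb2 call in 5 of 8 cases (adjusted p from 0.0703 to 0.0903) and that of Hoxb4 in 6 of 8 (0.0555 to 0.148). The number of calls was 1 without control replicate 3 or 4 or knockdown replicate 2 or 3, and 6 without knockdown replicate 4, where the share of all genes called was 19.8% to 22.9% and 31.9%. With the batch as a block 7 genes were called, against 41.3% of all genes, and without P19 8 were, against 39.9%. The block called Hoxa3 (0.24, adjusted p = 0.0274), Hoxb3 (0.37, 0.00608) and Hoxb8 (0.30, 0.00213) as higher and Hoxb9 (-0.48, 0.0019) as lower. Without the block, single libraries moved 3 of these values: Hoxa3, at 0.28, ranged from 0.17 to 0.48, Hoxb3 went from 0.36 to 0.22 without the P19 control library, and Hoxb9 from -0.44 to -0.75 without the P19 knockdown library.

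No HOX gene passed the test for a response to angiotensin II. In control cells 0 of 17 HOX genes were called, with 1 at an unadjusted p under 0.05. In the knockdown and for the difference between the 2 responses 0 of 17 were called, with 0 at an unadjusted p under 0.05. All 3 of these comparisons gave 0% called among all genes by edgeR, with the block and without P19 as well, and DESeq2 called 0 HOX genes in each. Hoxb7, the highest gene per kilobase of exon, stood at 46.5, 47.2, 50.3 and 47.3 CPM with angiotensin II and at 50.4, 54.3, 49.2 and 48.8 CPM without it in control cells.

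PDGF-BB, a mitogen for smooth muscle cells, was given only to control cells and was compared with the same untreated libraries as the untreated knockdown. Hoxa7 and Hoxb7 fell and Hoxb2 rose with it, 3 of the 17 HOX genes tested, where 43.6% of all genes were called. Hoxa7, the highest gene of cluster A, stood at 24.1, 36.9, 35.6 and 28.7 CPM against 40.4, 44.3, 42.9 and 43.2 CPM (-0.45 on the log2 scale, SE 0.12, adjusted p = 0.00563). Hoxb7 moved less, to 42.6, 44.3, 44.3 and 42.7 CPM (-0.22, SE 0.061, adjusted p = 0.00644), yet no treated library reached a control. Hoxb2 stood at 21.1, 19.6, 20.3 and 19.1 CPM against 17.3, 17.8, 15.6 and 11.7 CPM (0.37, SE 0.15, adjusted p = 0.0488), and this call was lost in 7 of 8 fits that left out a single library (adjusted p from 0.0533 to 0.132), without the filter on low counts (0.0567) and with a filter at a mean of 1 CPM (0.054). The median log2 fold change of the 17 genes was -0.17, against -0.017 over all genes. All 3 changes went the same way in 4 of 4 batches, and those of Hoxa7 and Hoxb7 were called in 15 of 15 alternatives. With the batch as a block 8 genes were called, against 54.5% of all genes, and without P19 7 were, against 48.9%. The block added Hoxb9 as higher (0.45, adjusted p = 0.00131) and Hoxa2 (-0.42, 0.00239), Hoxa3 (-0.28, 0.00963), Hoxb3 (-0.50, 0.000438) and Hoxb8 (-0.20, 0.0282) as lower. Without the block, leaving out treated replicate 4, of P19, moved Hoxa3 from -0.26 to -0.11, and leaving out treated replicate 1 moved Hoxb8 from -0.19 to -0.29. Hoxb9 stood at 14.5, 14.2, 14.1 and 17.7 CPM with PDGF-BB, above the control of its own batch each time.

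**Figure D4:**
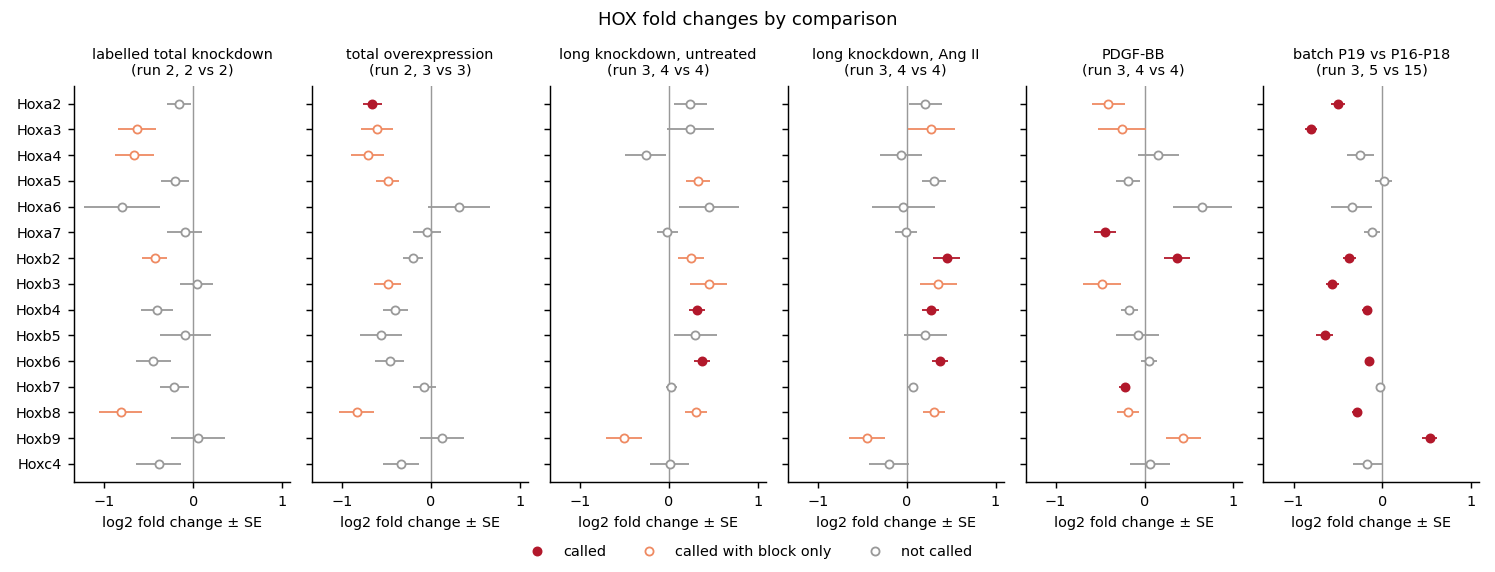
Log2 fold change ± SE of 15 HOX genes that were on, in 5 comparisons between groups and for batch P19 against P16 to P18. Filled red points were called (adjusted p under 0.05), open orange points were called only with the batch as a block, and grey points were not called. Hoxb6 is called as higher in both long knockdown panels, and Hoxb8 lies to the left of 0 in both panels of run 2.

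With overexpression of total CASC15, Hoxa2 was lower, 1 of the 15 HOX genes tested in run 2, where 1.65% of all genes were called. Hoxa2, which patterns the second pharyngeal arch, stood at 34.5, 35.2 and 30.2 CPM in the control plasmid libraries (P17 to P19) and at 22.7, 21.1 and 19.4 CPM with overexpression. The groups did not overlap and the gene was 1.58-fold lower (-0.66 ± 0.11 on the log2 scale, adjusted p = 0.0188). The call was lost without control replicate 1 (adjusted p = 0.0776), control replicate 2 (0.0831) or overexpression replicate 2 (0.0893), and in a fit of the compared groups alone (0.0915). With the batch as a block 6 HOX genes were called, all lower, against 17.7% of all genes: Hoxa2, Hoxa3 (-0.58, adjusted p = 0.0137), Hoxa4 (-0.72, 0.00831), Hoxa5 (-0.49, 0.0108), Hoxb3 (-0.46, 0.0123) and Hoxb8 (-0.83, 0.000768). Hoxb8, a trunk gene, stood at 60.6, 70.8 and 42.8 CPM in the control plasmid libraries and at 34.0, 37.1 and 26.3 CPM with overexpression. Hoxa4 stood at 9.68, 9.19 and 8.22 CPM against 6.49, 4.49 and 5.51 CPM, and Hoxa5 at 17.2, 19.6 and 18.6 CPM against 13.6, 13.6 and 12.2 CPM. Neither gene overlapped between the groups. Without P19 5 genes were called, against 5.57% of all genes. Leaving out control replicate 3, a P19 library, also gave 5, against 5.69% of all genes, and so did DESeq2, which called 5.59% of all genes. The median log2 fold change of the 15 genes was -0.47, against 0.00026 over all genes. The summed level of all 38 HOX genes was 364 ± 24.0 CPM with overexpression and 483 ± 77.9 CPM in its control (SD, n = 3). The weakly expressed Hoxc13 stood at 0.499, 0.359 and 0.26 CPM with overexpression and at 0, 0.165 and 0.057 CPM in the control, too low to be tested.

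The libraries labelled total CASC15 knockdown gave 0 calls of 15 HOX genes by edgeR, with 6 at an unadjusted p under 0.05, where 2.07% of all genes were called. DESeq2 called 1, Hoxb8 (adjusted p = 0.0473), and 4.69% of all genes. Hoxb8 stood at 61.2 and 66.8 CPM in the antisense control and at 41.2 and 31.5 CPM in the labelled knockdown. With the batch as a block 4 genes were lower, against 14.4% of all genes: Hoxa3 (-0.63, adjusted p = 0.0224), Hoxa4 (-0.66, 0.0297), Hoxb2 (-0.44, 0.0323) and Hoxb8 (-0.82, 0.0026). Without P19 Hoxa3 and Hoxb8 were lower, against 6.86% of all genes. The median log2 fold change of the 15 genes was -0.39, against 0.0055 over all genes. The control plasmid and the antisense control gave 0 calls of 15 by edgeR and 0 at an unadjusted p under 0.05, and DESeq2 called 0. Of all genes 1.18% were called there, 2.99% with the block and 1.06% without P19, with 0 HOX genes in either. Summed over 7 macrophage markers, the antisense control gave 8.69 to 10.4 CPM and the labelled total knockdown 27.7 to 32.5 CPM. With overexpression the sum was 18.1 to 23.5 CPM against 11.4 to 12.8 CPM in the control plasmid libraries, without overlap. Only 1 of the 7 markers reached a mean of 1 CPM with overexpression, and Ptprc, Adgre1 and Itgam were at the floor. In the labelled knockdown 3 of the 7 reached that mean, and Cd68 and Csf1r were called while Ptprc and Adgre1 stayed at the floor. The part of these markers in the HOX values of either comparison was not tested.

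Over the 9 comparisons between groups, 6 HOX genes were called at least once without the block: Hoxa2, Hoxa7, Hoxb2, Hoxb4, Hoxb6 and Hoxb7. The block added 6 others, Hoxa3, Hoxa4, Hoxa5, Hoxb3, Hoxb8 and Hoxb9. These were 35.3% of the 17 HOX genes tested without the block and 70.6% with or without it, where 56.2% and 73.2% of the 16268 genes tested in either run were called at least once. Hoxa6 and Hoxc4 were on but were called in no comparison, with or without the block and batch.

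Of 8 TALE cofactors tested, 4 were higher and 0 lower in the untreated long knockdown, 3 and 0 in the long knockdown under angiotensin II, and 2 and 3 with PDGF-BB, where 25%, 26.7% and 43.6% of all genes were called. The block gave 5 and 0, 5 and 0, and 2 and 4, where it called 40.6%, 41.3% and 54.5% of all genes. Meis1, a partner of HOX proteins on DNA, stood at 15.1, 17.3, 16.8 and 14.7 CPM in the control and at 34.3, 27.04, 30.1 and 20.9 CPM in the untreated knockdown, without overlap (0.82 ± 0.12 on the log2 scale, adjusted p = 5.48e-05). Meis2 stood at 99.7, 101, 97.1 and 104 CPM against 184, 188, 188 and 154 CPM (0.83, SE 0.072, adjusted p = 8.45e-08). Both were higher under angiotensin II as well (0.80 and 0.79), and both were lower with PDGF-BB, Meis1 by a log2 fold change of -0.44 (adjusted p = 0.00699) and Meis2 by -0.56 (3.16e-06). Pbx3, another partner of HOX proteins, was higher with PDGF-BB, from 5.46, 5.31, 5.19 and 6.4 CPM to 11.3, 10.6, 12.4 and 15.6 CPM (1.16, SE 0.18, adjusted p = 2.59e-05). Over the 8 genes the median log2 fold change was 0.35 in the untreated knockdown and -0.22 with PDGF-BB, against 0.015 and -0.017 over all genes. In run 2 edgeR called 0 of 8 in the labelled total knockdown, with 2 at an unadjusted p under 0.05, while DESeq2 called 0 and the block 3, all lower. Of all genes edgeR called 2.07% there, DESeq2 4.69% and the block 14.4%. With overexpression edgeR called 0 of 8, with 2 at an unadjusted p under 0.05, and DESeq2 and the block each called 2 as lower, where the shares of all genes were 1.65%, 5.59% and 17.7%.

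**Figure D5:**
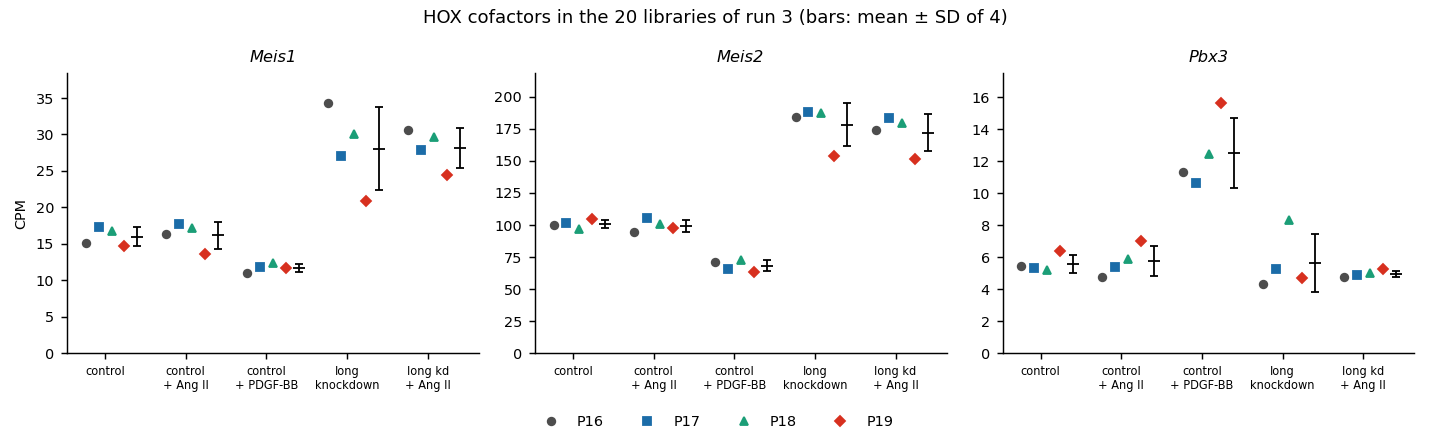
CPM of the HOX cofactors Meis1, Meis2 and Pbx3 in the 20 libraries of run 3, by group on the horizontal axis, with the batch shown by the marker and bars giving the mean ± SD of 4 libraries. Meis1 and Meis2 are higher in both knockdown groups and lower with PDGF-BB, and Pbx3 is highest with PDGF-BB.

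The counts for the chromatin regulators of HOX clusters stand beside the same shares of all genes called: 25% in the untreated long knockdown, 26.7% in that under angiotensin II and 43.6% with PDGF-BB, or 40.6%, 41.3% and 54.5% with the block. Of 12 tested genes of Polycomb repressive complex 2, which places the repressive H3K27 methyl mark, 4 were higher and 1 lower in the untreated long knockdown, 3 and 2 under angiotensin II, and 8 and 3 with PDGF-BB. Ezh2, its methyltransferase, had a log2 fold change of -0.35 in the untreated knockdown (adjusted p = 0.000354) and 0.92 with PDGF-BB (9.34e-10). Phf19, an accessory subunit, had one of 4.22 with PDGF-BB (4.57e-10). Of 19 genes of Polycomb repressive complex 1, 4 were higher and 1 lower in the untreated knockdown, 4 and 1 under angiotensin II, and 1 and 7 with PDGF-BB. The block raised these to 8 and 3, 6 and 3, and 2 and 14. Cbx7, a reader of the methyl mark, rose by 2.47 on the log2 scale in the untreated knockdown (adjusted p = 8.03e-06), and Bmi1, a core subunit, by 0.36 (0.000462). Of 13 genes of MLL complexes and H3K27 demethylases, 2 were higher and 0 lower in the untreated knockdown, 4 and 0 under angiotensin II, and 6 and 3 with PDGF-BB. With the block they were 6 and 0, 7 and 0, and 8 and 4. Kdm6a, an H3K27 demethylase, was among those higher in the untreated knockdown. The median log2 fold changes of the 3 lists in the order given were 0.13, 0.13 and 0.11 in the untreated knockdown and 0.37, -0.25 and 0.19 with PDGF-BB. In the 3 comparisons of run 2 edgeR called 0 genes of these lists, with 0 to 3 per list and comparison at an unadjusted p under 0.05. Of all genes it called 2.07% in the labelled total knockdown, 1.65% with overexpression and 1.18% between the 2 controls. DESeq2, which called 4.69%, 5.59% and 2.26% of all genes in these comparisons, called 2 genes of the lists, a gene of the MLL list lower in the labelled total knockdown and a gene of Polycomb repressive complex 2 higher in the control plasmid against the antisense control. With overexpression the block, which called 17.7% of all genes, gave 1 higher and 4 lower for complex 1, 2 and 2 for the MLL list, and 1 and 0 for complex 2. In the labelled total knockdown, where it called 14.4% of all genes, it gave 0 and 1, 0 and 1, and 1 and 0 for the lists in that order. Between the 2 controls, where it called 2.99%, it called 1 gene of complex 2 as higher and 0 of the other lists.

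Other inputs and position genes were followed in 4 further lists, whose counts stand beside the same shares of all genes: 25%, 26.7% and 43.6% in the 3 run 3 comparisons, and 40.6%, 41.3% and 54.5% with the block. Of 21 genes of the retinoic acid and CDX inputs, 11 were tested in run 3, and 1 was higher and 0 lower in the untreated knockdown, 2 and 0 under angiotensin II, and 1 and 2 with PDGF-BB. The block gave 3 and 3, 4 and 1, and 1 and 4. Aldh1a1, a retinoic acid synthesis enzyme, had a log2 fold change of 1.42 in batch P19 (adjusted p = 4.88e-09). Of 42 other homeobox genes of mesenchyme, 19 were tested, with 4 higher and 4 lower in the untreated knockdown, 4 and 6 under angiotensin II, and 3 and 1 with PDGF-BB, or 3 and 7 with the block. Tshz2 and Tshz1, zinc finger homeobox factors of the trunk, were higher in the untreated knockdown at log2 fold changes of 1.76 (adjusted p = 0.00029) and 0.92 (3.16e-07). Of 26 T-box, GATA and basic helix-loop-helix factors, 12 were tested in run 3, with 1 higher and 1 lower in the untreated knockdown, 2 and 0 under angiotensin II, and 0 and 3 with PDGF-BB. The block gave 4 and 2, 3 and 1, and 1 and 4. Gata6, a factor of vascular smooth muscle, was the gene higher in the untreated knockdown (0.55, adjusted p = 0.00672). In run 2 Tbx18, a factor of mesenchymal progenitors, was the single call of that list in each comparison, higher in the labelled total knockdown, where 2.07% of all genes were called, and lower with overexpression, where 1.65% were. Of 17 noncoding genes of the HOX clusters found in the table, 5 were tested in run 3. By edgeR 0 were called in either knockdown comparison, with 0 at an unadjusted p under 0.05 and 0 by DESeq2, while the block called 2 as higher in the untreated one. Hoxaas2, an antisense RNA of cluster A, was lower with PDGF-BB (-0.95, adjusted p = 0.00716). Hoxaas2 and Hoxb3os were also lower in batch P19, at -0.72 (5.58e-06) and -0.71 (1.8e-06).

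Markers of other cell types moved in the same comparisons, and their part in the HOX values was not tested. In the untreated long knockdown, 3 of 9 tested smooth muscle markers were higher and 1 lower, and of 7 fibroblast markers 2 were higher and 4 lower. With PDGF-BB the counts were 1 and 1 for smooth muscle and 2 and 3 for fibroblast markers. Of all genes 25% were called in the first comparison and 43.6% in the second. Summed over the list, endothelial markers gave 0.356 to 10.1 CPM over all libraries with Cdh5, Tie1 and Emcn at the floor, and neural crest and Schwann cell markers 6.54 to 36.5 CPM with Sox10, Foxd3 and Ngfr at the floor. Cardiac and skeletal muscle markers gave 5.19 to 64.2 CPM, nearly all from Tnnt2, and epithelial markers 35.5 to 199 CPM, mostly from Cdh1. With PDGF-BB the cardiac and skeletal sum was 60.1 to 64.2 CPM against 16.2 to 23.5 CPM in the untreated control, and the epithelial sum 157 to 199 CPM against 97.8 to 129 CPM, neither with overlap. The epithelial sum was 36.9 to 70.2 CPM in the untreated long knockdown, below that control. In the long knockdown under angiotensin II it was 35.5 to 64.6 CPM against 104 to 128 CPM. In the labelled total knockdown of run 2 it was 73.4 to 96.3 CPM against 44.9 to 45.9 CPM, and with overexpression 66.5 to 150 CPM against 44.7 to 64.5 CPM. The fibroblast sum was lower without overlap in the long knockdown, at 3624 to 4027 CPM against 4709 to 5542 CPM in untreated cells and at 3527 to 4011 CPM against 4892 to 5431 CPM under angiotensin II. It was also lower in the labelled total knockdown, at 4004 to 4482 CPM against 5015 to 5017 CPM. The neural crest and Schwann cell sum was lower without overlap with PDGF-BB (22.7 to 25.5 against 32.4 to 36.5 CPM), in the long knockdown under angiotensin II (19.7 to 27.3 against 30.9 to 36.5 CPM) and with overexpression (6.54 to 9.27 against 12.0 to 15.4 CPM). The endothelial sum was lower with PDGF-BB (0.356 to 1.05 against 1.25 to 2.76 CPM) and higher in the labelled total knockdown (6.02 to 10.1 against 2.81 to 3.9 CPM), and in the long knockdown under angiotensin II it was 2.29 to 4.21 against 0.925 to 2.28 CPM. The smooth muscle sum was 205 to 223 CPM with PDGF-BB against 244 to 280 CPM, and the cardiac and skeletal sum 10.9 to 15.0 CPM in the labelled total knockdown against 5.19 to 5.93 CPM. Both epithelial markers tested were lower in the untreated knockdown, Cdh1 with a log2 fold change of -1.28. Over batch P19 against P16 to P18, 2 smooth muscle markers were higher and 1 lower, and 1 fibroblast marker was higher and 4 lower, where 46.3% of all genes were called.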

How the data were processed

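RNA of 30 libraries was measured by paired-end sequencing of 75 bases, per the labels' protocols. The deposited values are estimated counts per gene that the authors made with RSEM 1.3.1 after STAR 2.7.11b, per the submitters' processing notes, which also name the builds GRCm39 and mm10; the annotation and the strand setting are not given in the sources used here. Counts were rounded to whole numbers. Gene symbols, exon lengths and overlaps came from GENCODE M21 on GRCm38, which gave a symbol for 51486 of 78334 identifiers and 98.7% of counts. Each run was fitted on its own with all its groups in edgeR 4.0.16 (R 4.3.3; filterByExpr, TMM scaling, robust quasi-likelihood test), with 15350 genes tested in run 2 and 15103 in run 3, Benjamini-Hochberg adjustment over all of them and a call at adjusted p under 0.05. DESeq2 1.42.0 served as an alternative.

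The members and gene lists were chosen with earlier results of these data known. Of the 39 HOX genes 1 is not reported here, nor is 1 cofactor; the other 38 are accounted for. Library values are given for those called, in at least 1 of the comparisons that called them, and for the highest of clusters A to C. From each other list up to 4 genes are named, by size of change or level, not all with library values. HOX levels rest on totals of 15771490 counts or more; intervals were not used. The labels tie each replicate number to a batch, so same-numbered libraries are paired: deviations from group means correlated at 0.23 for the same number and -0.121 for others in run 2, and at 0.197 and -0.0606 in run 3. Centring on the group mean makes the second value of each pair negative when the first is positive, so it is no separate evidence. Calls without the block do not use this pairing. On simulated counts with 2-fold changes in 200 genes, the test recovered 23.3% of the 193 that passed the filter with 2 libraries against 2, 50.5% of 194 with 3 against 3 and 69.8% of 192 with 4 against 4. Beside these 45, 98 and 134 recovered genes it called 5, 13 and 8 unchanged ones. Motif matches and windows came from RefSeq on GRCm38.p6. The alternatives were the batch block, other scaling, filters and groups in the fit, DESeq2, leaving out each library and, chosen after seeing the data, leaving out batch P19.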

Additional observations from a re-analysis of the deposited data

Results flagged for a closer look

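Among the HOX genes that were on, 75 gene and group combinations of 4 libraries were searched for a single library far from the other 3, by the gap divided by the range against Dixon's critical value for 4 samples. In 7 a library stood out. The critical value would mark about 1 in 20 independent sets by chance. The genes here share the same libraries, so the 7 cannot be set against that rate. All 7 were libraries of batch P19.

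Hoxa3 stood at 12.9 CPM with PDGF-BB where the other 3 libraries lay at 22.6 to 23.9 CPM, and at 16.6 CPM in the long knockdown under angiotensin II against 33.2 to 36.1 CPM. Hoxb2 stood at 13.4 CPM in the long knockdown under angiotensin II against 20.0 to 20.5 CPM. Hoxb4 stood at 14.9 CPM with PDGF-BB against 17.5 to 17.6 CPM. Hoxb9 was high in each case: 17.7 CPM with PDGF-BB against 14.1 to 14.5 CPM, 12.5 CPM in the long knockdown under angiotensin II against 5.88 to 6.79 CPM, and 10.6 CPM in the untreated long knockdown against 6.96 to 7.01 CPM.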

How the results depend on the processing

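No called fold change of a HOX gene changed sign in the alternatives run. With the batch as a replicate block the number of HOX genes called was 4 in the labelled total knockdown, 6 with overexpression, 7 in the long knockdown untreated, 7 under angiotensin II and 8 with PDGF-BB. Without batch P19, chosen after seeing the data, it was 2, 5, 9, 8 and 7. Without the filter on low counts it was 2 in the labelled total knockdown, 6 with overexpression and 1 in the untreated long knockdown, where 4.44%, 4.56% and 9.34% of all genes were called, and 2 in place of 3 both under angiotensin II (9.8%) and with PDGF-BB (17.3%). A filter at a mean of 1 CPM gave 2 with PDGF-BB (48.6%). Fitting only the groups compared gave 2 in the labelled total knockdown, 0 with overexpression and 6 with PDGF-BB, against 7.34%, 0.478% and 44.8% of all genes, and DESeq2 gave 1 and 5 in these run 2 comparisons, against 4.69% and 5.59%. Leaving out a replicate at a time gave 0 to 5 with overexpression, 1 to 5 and 1 to 6 in the untreated and angiotensin II knockdowns, and 2 to 3 with PDGF-BB, where the share of all genes ran from 0.561% to 5.69%, 18.8% to 31.7%, 19.8% to 31.9% and 36.5% to 43.1%. It gave 0 in the labelled total knockdown and between the 2 controls of run 2, where 0.0247% to 1.16% and 0.414% to 1.81% of all genes were called. DESeq2's size factors used within edgeR changed no call of a HOX gene. Genes at under 1 CPM, such as Hoxa9, Hoxa10, Hoxa13 and the weak cluster C genes, rest on few counts. How large a difference in them could be detected at this depth was not measured.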
